A study of Mus musculus with 6 samples.

Results

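Interferon-stimulated genes were examined in RNA-seq counts from whole pancreatic islets. The members are 43 genes chosen by symbol, the receptor chains for type I interferon, the transcription factors downstream of them, sensors of viral nucleic acid, and the effectors that interferon induces. Of these, 30 stand among the 11106 genes analysed, all 30 passed the filter on low counts, and the other 13 (Isg15, Ifit2, Ifit3, Mx1, Mx2, Gbp2, Gbp3, Gbp7, Dhx58, Zbp1, Rnf213, Ifi44 and Xaf1) were not analysed here. The results below therefore cover no interferon-inducible GTPase and lack the ISG15 modifier itself.

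The 6 islet libraries come from male mice, 3 with Ern1fl/fl and the Cre transgene (here called knockout, numbered 11, 12 and 13) and 3 littermates with Ern1fl/fl alone (here called floxed, numbered 8, 18 and 19). Ern1 encodes IRE1α, an endoplasmic reticulum stress sensor with an RNase domain, and the transgene is Cre-ERT2 driven by the promoter of VE-cadherin, an endothelial junction protein, so beta cells and other islet cells keep the gene. All 6 mice received 2 mg tamoxifen on each of 5 days at 4 weeks of age and, from 8 weeks of age, a diet with 60% of its energy as fat for 16 weeks, so the tamoxifen and the diet are shared by both groups. Each library is a separately numbered animal, and sets of 3 values below follow the order 11, 12, 13 for knockout and 8, 18, 19 for floxed islets.

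Type I interferons bind a receptor made of IFNAR1 and IFNAR2, whose kinases JAK1 and TYK2 phosphorylate STAT proteins, STAT2 among them. STAT2 and IRF9 are part of a complex that binds interferon-stimulated response elements, DNA motifs in the promoters of many of the genes below. The products degrade, edit or sequester foreign RNA, alter nucleotide pools, tag proteins with ISG15, or feed back on the receptor. In islets the pathway is best known from autoimmune diabetes, where beta cells carry an interferon signature.

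The promoters of 3 of the 4 members with the smallest p-values are shown first (the other, Ly6a, had no entry). These genes share a direction in the data and differ in whether a match to the core of the response element lies near their start. RefSeq start windows (GRCm38.p6, 250 bases before to 50 after a transcript start, read along the gene's strand) matched 24 of the 30 members, with 30 windows in all; Ly6a, Ly6e, Ifi27, Usp18, Parp9 and Parp14 had no entry. Each window was searched on both strands for the core of the response element (GAAA, any 2 bases, GAAA) and for the core of the gamma-activated site, TTCNNNGAA, whose matches may overlap each other. Capitals mark the matches. Only these cores were searched, so a window without a match may still hold an element of another spacing or sequence. Rsad2 (chr12:26456403-26456702, minus strand) holds a single response element match, Cmpk2 (chr12:26468965-26469264, plus strand) holds neither motif, and the first of 3 windows of Isg20 (chr7:78913174-78913473, plus strand) holds a single gamma-activated site match.
Rsad2: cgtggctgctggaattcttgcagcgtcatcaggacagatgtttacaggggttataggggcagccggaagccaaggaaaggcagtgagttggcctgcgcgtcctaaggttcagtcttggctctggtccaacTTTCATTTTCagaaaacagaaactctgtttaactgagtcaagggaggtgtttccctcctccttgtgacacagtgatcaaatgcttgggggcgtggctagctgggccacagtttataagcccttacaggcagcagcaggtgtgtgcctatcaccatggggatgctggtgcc
Cmpk2: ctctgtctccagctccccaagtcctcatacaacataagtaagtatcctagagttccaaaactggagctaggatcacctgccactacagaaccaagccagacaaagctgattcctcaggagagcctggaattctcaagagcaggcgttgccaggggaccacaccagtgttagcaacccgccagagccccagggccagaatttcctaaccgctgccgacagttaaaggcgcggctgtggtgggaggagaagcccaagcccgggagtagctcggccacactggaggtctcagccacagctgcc
Isg20: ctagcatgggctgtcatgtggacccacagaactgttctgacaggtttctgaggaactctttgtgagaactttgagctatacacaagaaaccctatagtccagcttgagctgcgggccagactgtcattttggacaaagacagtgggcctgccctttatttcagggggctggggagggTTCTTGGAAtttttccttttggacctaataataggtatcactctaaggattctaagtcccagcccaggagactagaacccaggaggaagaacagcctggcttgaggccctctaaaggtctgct

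The response element core was found in 10 of the 24 matched members (41.7%), against 3.99% of the 27025 genes of the table, and the gamma-activated core also in 10 (41.7%), against 9.55%. The members were chosen as interferon-stimulated genes, so neither share is a finding apart from that choice. The matches of the motifs can also overlap, as they do in Bst2. For comparison with the Rsad2 match, the stretches around the matches are shown for the other members whose values in every library are given below, and for Oas1a. Matches were also found in Bst2, Eif2ak2, Ifih1 and Trim21, and are not shown. Each line has a single match in capitals, and the matches of Oas1a overlap, so each of its lines holds the other match partly in lower case. Matches that begin with TTTC are the element read on the opposite strand.
Ifit1, first match, 104 bases before the start: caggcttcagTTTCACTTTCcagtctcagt
Ifit1, second match, 85 bases before: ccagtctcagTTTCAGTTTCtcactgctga
Oas1a, first match, 20 bases before: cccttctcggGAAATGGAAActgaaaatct
Oas1a, second match, 14 bases before: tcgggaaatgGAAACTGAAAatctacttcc
Stat2, 222 bases before: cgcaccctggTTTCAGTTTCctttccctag
Irf2, 241 bases before: tggggaagtGAAAATGAAAttgacttttc
Ddx58, 2 bases after: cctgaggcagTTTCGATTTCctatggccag

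The members did not move together. Over all 30, the median log2 difference (fitted log2 fold change, knockout minus floxed) was -0.015, beside -0.0029 over the 11080 genes tested, 17 had negative and 13 positive values, and 24 lay within 0.5 of zero on the log2 scale. Cmpk2 fell and was the only member past the threshold (edgeR quasi-likelihood test, Benjamini-Hochberg adjusted p below 0.05), and 0 members were called higher. The background was 0.406% of all genes called, 0.0632% lower and 0.343% higher. At an unadjusted edgeR p below 0.05 there were 5 members lower and 1 higher, against 771 and 1215 of the 11080 genes (6.96% lower, 17.9% in either direction). In 6 of 30 members every knockout library lay below every floxed library, against 10.2% of all genes, and in 0 members did every knockout library lie above, against 14.1%. The members lower in every knockout library were Cmpk2, Isg20, Rsad2, Ly6a, Usp18 and Stat2.

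**Figure D1:**
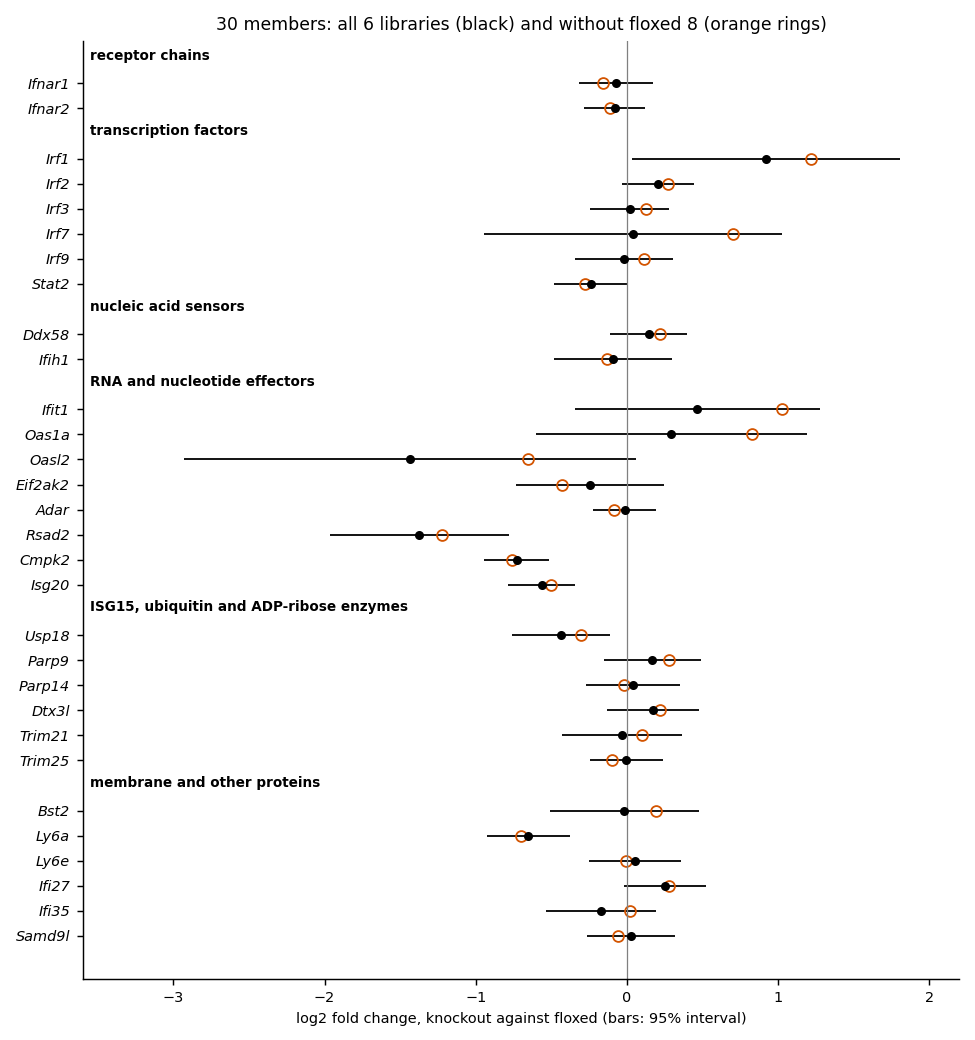
Log2 difference of each of the 30 members, knockout against floxed, with its 95% interval from all 6 libraries (black) and the value without floxed 8 (orange rings), grouped by role. Cmpk2, Isg20, Rsad2, Ly6a and Usp18 have intervals wholly below zero and Irf1 one wholly above; Irf7 moves from 0.04 to 0.70 and Ifit1 from 0.47 to 1.03 when floxed 8 is left out.

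Libraries and cell content touch these results. Total counts ran from 18470720 to 18957444, so that 1 CPM (counts scaled to library size by TMM) stood for 17.3 to 20.8 counts. Ins1 and Ins2, the insulin genes, held 28.2% to 43.4% of counts. Ern1 measured 41.9, 36.0 and 46.8 CPM in knockout against 30.1, 44.6 and 46.0 CPM in floxed islets (edgeR adjusted p = 0.920), and since other islet cells keep the gene, whole-islet levels do not check the deletion. Floxed 8 stood apart from floxed 18 and 19. Immediate early and heat shock genes, which respond to tissue handling, held 1.89% to 2.01% of counts in knockout libraries, 1.29% in floxed 8, and 0.238% and 0.227% in floxed 18 and 19. Acinar markers held 12.5% to 17.9% in knockout and 8.45%, 2.80% and 5.598% in floxed libraries. The 18 measured endothelial markers (of 20) held 0.0626% to 0.0654% in knockout, 0.0619% in floxed 8, and 0.0998% and 0.0899% in floxed 18 and 19. Of 16 macrophage and dendritic markers 8 were measured, none at zero, holding 0.00497% to 0.0163% in knockout (the highest in knockout 12) and 0.00679% to 0.00882% in floxed libraries. Of 14 lymphoid markers only the B cell gene Cd79a was measured, at 9.54, 7.36 and 6.57 CPM in knockout against 11.4, 4.75 and 3.97 CPM in floxed islets. The 8 alpha, delta and PP cell markers held 4.01% of counts in floxed 8 and 2.08% to 2.55% in the other libraries. In bulk islets, fewer cells of a type and less RNA per cell cannot be told apart. The covariate fits given below cannot separate cell content or tissue handling from genotype, because the covariates nearly follow the groups apart from floxed 8. For the endothelial and the immediate early levels, floxed 8 was the only floxed library near the knockout libraries. For the acinar level it was the nearest. The adjusted differences therefore lean on floxed 8. With these fits and the left-out libraries given as values only, the part of cell content and tissue handling in the results was not tested.

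**Figure D2:**
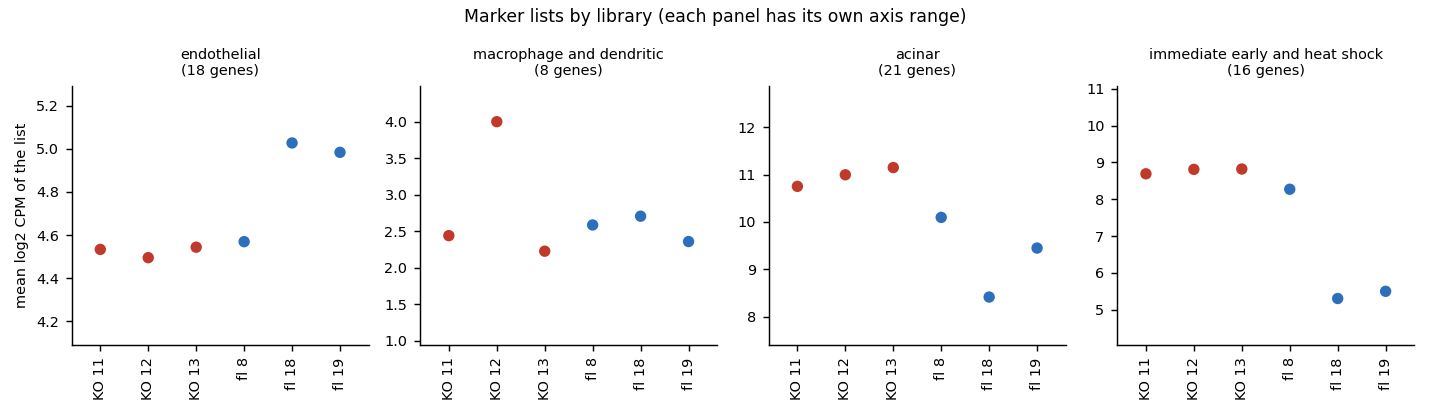
Mean log2 CPM of 4 marker lists in each library (red, knockout; blue, floxed). Floxed 8 lies beside the knockout libraries for the endothelial and the immediate early and heat shock genes, and knockout 12 is highest for the macrophage and dendritic genes.

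The receptor chains had small differences that did not pass the test. Ifnar2, the chain that also docks the negative regulator USP18, measured 22.7, 20.7 and 22.3 CPM in knockout against 22.4, 24.0 and 23.0 CPM in floxed islets. The groups overlapped, with a log2 difference of -0.08 and a 95% interval from -0.28 to 0.12 (edgeR adjusted p = 0.678). Ifnar1, its partner, had a log2 difference of -0.07 with an interval from -0.32 to 0.18 (adjusted p = 0.779).

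Among the transcription factors, Irf1 had the only unadjusted edgeR p below 0.05 in the upward direction. Irf1 encodes a factor induced by interferon gamma and by acute stimuli, and measured 34.0, 26.1 and 53.1 CPM in knockout against 27.6, 18.7 and 13.6 CPM in floxed islets. Knockout 13 was highest, and floxed 8 lay above knockout 12, so the groups overlapped. The log2 difference was 0.92 (standard error 0.36, edgeR adjusted p = 0.262). For the immediate early and heat shock genes floxed 8 likewise lay nearer to the knockout libraries than floxed 18 and 19 did. With the mean of those genes as a covariate, an alternative added after the data were seen, the log2 difference was 0.32 (edgeR adjusted p = 0.793). With the planned acinar or endothelial covariate it was 0.35 or 0.47 (edgeR adjusted p = 0.904 or 0.685). Floxed 8 was the floxed library nearest to the knockout level of each covariate, so these fits lean on floxed 8. The part of tissue handling or cell content in Irf1 was not tested.

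Stat2, which carries the transactivation domain of the complex, measured 14.0, 13.5 and 14.1 CPM in knockout against 15.6, 18.2 and 15.2 CPM in floxed islets. All knockout libraries were below all floxed libraries, by a small margin, with a log2 difference of -0.24 and a standard error of 0.11 (edgeR adjusted p = 0.291). Irf9, the DNA-binding subunit of the complex, had means of 9.37 ± 0.469 and 9.52 ± 1.53 CPM (SD, n = 3 each), a log2 difference of -0.02.

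Irf2, which competes with IRF1 for its sites, measured 21.4, 24.4 and 24.7 CPM in knockout against 22.5, 19.5 and 19.2 CPM in floxed islets (log2 difference 0.21, edgeR adjusted p = 0.347). Knockout 11 lay below floxed 8, so the groups overlapped. Irf3, activated by phosphorylation after RNA or DNA sensing, had a log2 difference of 0.02. Irf7, which is itself induced by interferon and amplifies the response, measured 5.596, 5.23 and 6.01 CPM in knockout against 9.66, 3.65 and 3.21 CPM in floxed islets. The 3 knockout libraries lay close together, between floxed 8 on the one side and floxed 18 and 19 on the other, and the group means were nearly equal (log2 difference 0.04, 95% interval -0.94 to 1.02).

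The nucleic acid sensors showed small differences. Ddx58, which encodes the RNA sensor RIG-I, measured 14.1, 14.0 and 15.02 CPM in knockout against 14.5, 12.2 and 12.4 CPM in floxed islets. Floxed 8 lay among the knockout libraries, and the log2 difference was 0.14 (edgeR adjusted p = 0.543). Ifih1, which encodes the long double-stranded RNA sensor MDA5, had a log2 difference of -0.09 with an interval from -0.48 to 0.30.

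The effectors that act on RNA and nucleotides held 3 of the 5 members that were lower at an unadjusted edgeR p below 0.05, and only Cmpk2 of these passed after adjustment. Cmpk2, a mitochondrial nucleoside monophosphate kinase, measured 16.6, 15.6 and 14.2 CPM in knockout against 24.7, 26.4 and 25.8 CPM in floxed islets. The groups were well apart, and floxed 8 lay with floxed 18 and 19. The means were 15.5 ± 1.17 and 25.7 ± 0.843 CPM (SD, n = 3 each), a log2 difference of -0.73 (standard error 0.0959, edgeR adjusted p = 0.0316), or 0.603 times the floxed level. The call was lost without knockout 11, 12 or 13 (adjusted p = 0.0856, 0.122 and 0.163), without floxed 18 or 19 (0.0606 and 0.0977), with the acinar level as a covariate (log2 difference -0.60, adjusted p = 0.523) and with the immediate early level as one (-0.66, adjusted p = 0.0511). Without floxed 8 the value was -0.76 (adjusted p = 6.2e-04), and over the 18 alternatives the log2 difference ran from -0.82 to -0.60. Of all genes tested, 0, 8 and 0 were called without knockout 11, 12 or 13, and 18 and 16 without floxed 18 or 19. The acinar covariate called 0 genes and the immediate early covariate 102, against 45 with all libraries and no covariate.

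Rsad2 encodes viperin, an enzyme that turns CTP into a chain-terminating nucleotide, and is the neighbour of Cmpk2 on chromosome 12. Rsad2 runs from 26442743 to 26456452 on the minus strand and Cmpk2 from 26469117 to 26479837 on the plus strand (RefSeq, GRCm38.p6), 12664 bases apart and divergent. Rsad2 measured 1.66, 1.88 and 1.28 CPM in knockout against 5.09, 4.42 and 3.05 CPM in floxed islets. Like its neighbour it was lower in all 3 knockout libraries than in all 3 floxed ones. The values rest on 23 to 92 counts per library. The log2 difference was -1.37 (standard error 0.26), the 95% interval ran from -1.97 to -0.78, and Rsad2 missed the threshold (edgeR adjusted p = 0.0670). Over the 18 alternatives it ran from -1.71 to -1.22.

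Isg20, a 3′ to 5′ exonuclease that degrades RNA, was the second most abundant member per kilobase of exon. Isg20 measured 46.0, 43.6 and 38.8 CPM in knockout against 68.9, 61.1 and 59.8 CPM in floxed islets. The groups did not overlap, with means of 42.8 ± 3.66 and 63.3 ± 4.95 CPM (SD, n = 3 each). This is a log2 difference of -0.56 (standard error 0.0983, edgeR adjusted p = 0.0595), which missed the threshold. Without floxed 8 it was -0.50 and passed (adjusted p = 0.00410).

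Ifit1 and Oas1a lay on the other side of zero from these genes, with wide intervals. Ifit1, which binds RNA whose cap lacks the host's methyl mark, measured 5.82, 5.58 and 5.17 CPM in knockout against 6.71, 2.45 and 2.95 CPM in floxed islets. Floxed 8 was the highest of all 6 libraries, while floxed 18 and 19 were the lowest. The log2 difference was 0.47 with an interval from -0.34 to 1.28 (edgeR adjusted p = 0.535). Oas1a, which makes the oligoadenylate that activates RNase L, measured 3.31, 2.79 and 1.84 CPM in knockout against 3.58, 1.58 and 1.37 CPM in floxed islets (log2 difference 0.29, edgeR adjusted p = 0.740), again with floxed 8 highest. With the acinar, endothelial or immediate early covariate its value was -0.51, -0.57 or -0.63. Its counts were not whole numbers, and it has close relatives in the Oas1 gene cluster, so its level is uncertain.

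Oasl2, an oligoadenylate synthetase-like gene, had the lowest log2 difference of all members, and floxed 8 held its highest value. Oasl2 measured 2.34, 2.99 and 2.34 CPM in knockout against 12.95, 5.67 and 2.34 CPM in floxed islets. Floxed 19 lay within the knockout range, so the groups overlapped. Its log2 difference was -1.43 (standard error 0.61, edgeR adjusted p = 0.297) and -0.65 without floxed 8 (adjusted p = 0.252). Eif2ak2, the kinase PKR that halts translation on sensing double-stranded RNA, had a log2 difference of -0.24 with an interval from -0.73 to 0.25. Adar, which edits adenosine to inosine in double-stranded RNA, had means of 38.4 ± 0.649 and 38.8 ± 3.41 CPM (SD, n = 3 each).

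**Figure D3:**
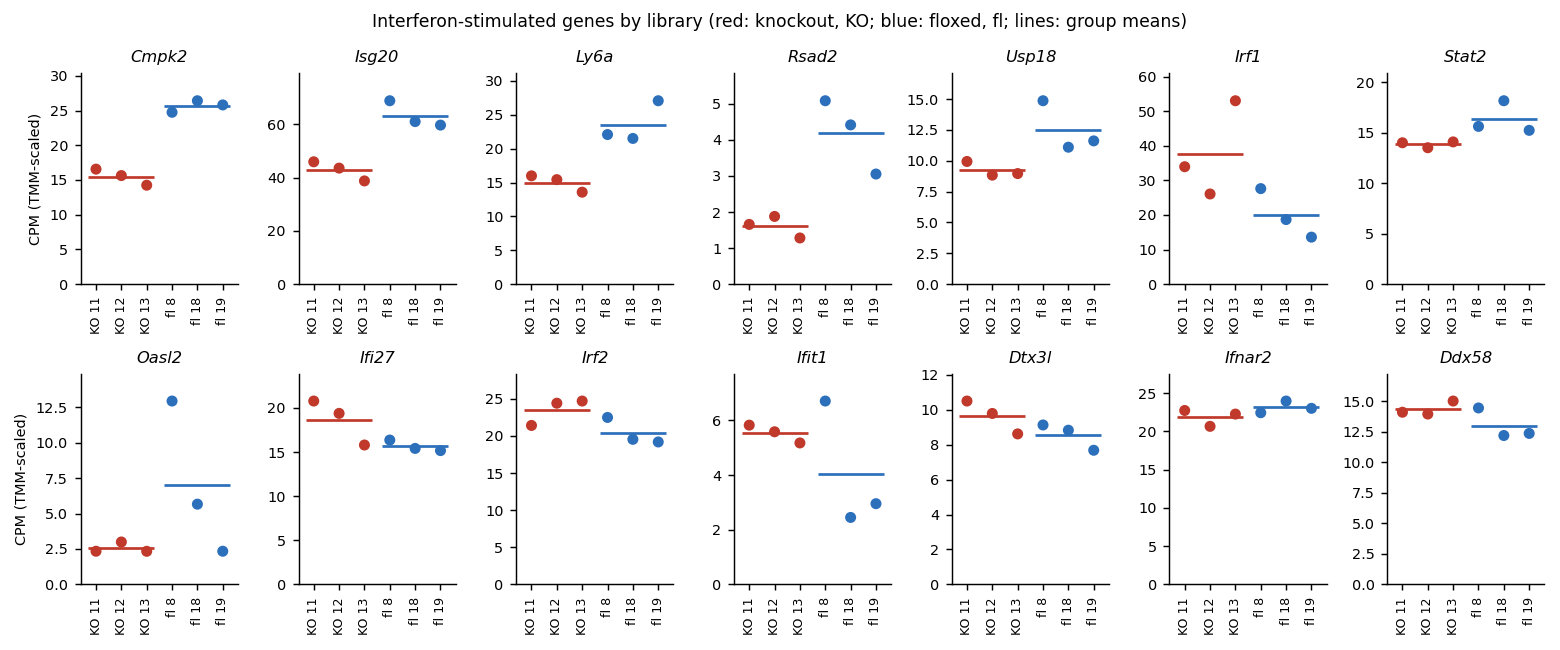
TMM-scaled CPM of 14 members in each library, with group means as lines (red, knockout; blue, floxed; each panel has its own axis from 0). Cmpk2, Isg20, Ly6a, Rsad2, Usp18 and Stat2 show no overlap between the groups, and floxed 8 is the highest library for Isg20, Rsad2, Usp18, Oasl2 and Ifit1.

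Of the enzymes of ISG15, ubiquitin and ADP-ribose transfer, Usp18 differed most. Usp18 removes ISG15 from proteins and dampens signalling at the receptor, and measured 9.94, 8.83 and 8.96 CPM in knockout against 14.9, 11.1 and 11.6 CPM in floxed islets. The groups did not overlap, and floxed 8 was highest. The log2 difference was -0.44 (standard error 0.14, edgeR adjusted p = 0.168). Without floxed 8 it was -0.30 (adjusted p = 0.135), and it was not called in any of the 18 alternatives.

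Dtx3l, a ubiquitin ligase, and Parp9, its ADP-ribosyltransferase partner, are adjacent on chromosome 16 with overlapping exons on opposite strands. Dtx3l measured 10.5, 9.79 and 8.62 CPM in knockout against 9.14, 8.84 and 7.69 CPM in floxed islets. Fitted log2 differences were 0.17 for Dtx3l and also 0.17 for Parp9 (edgeR adjusted p = 0.542 and 0.576). Whether reads were counted by strand is unstated, so reads in their 458 shared bases cannot be assigned, and the counts of both were not whole. Parp14, another ADP-ribosyltransferase, and the ubiquitin ligases Trim21 and Trim25 had log2 differences between -0.03 and 0.04.

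Ly6a led the membrane proteins. Ly6a encodes Sca-1, a lipid-anchored surface protein that interferon induces and that endothelial cells also carry, and measured 16.0, 15.4 and 13.6 CPM in knockout against 22.1, 21.5 and 27.1 CPM in floxed islets. The groups did not overlap, and floxed 8 lay with floxed 18. The fitted log2 difference was -0.65 (standard error 0.12, edgeR adjusted p = 0.0647), which missed the threshold. The 18 endothelial markers all had negative log2 differences, with a median of -0.29, and 0 of them were called. Medians were also negative for beta cell (-0.24), alpha, delta and PP cell (-0.20) and red blood cell markers (-0.65), and positive for the other marker lists. With the endothelial, acinar or immediate early covariate the value for Ly6a was -0.57, -0.69 or -0.54 (edgeR adjusted p = 0.0983, 0.523 or 0.125). Floxed 8 was the floxed library nearest to the knockout level of each covariate, so these fits lean on floxed 8. The part of endothelial or other cell content in Ly6a was not tested. Ly6e, a relative on the same chromosome and the most abundant member per kilobase of exon, had means of 269 ± 41.1 CPM (knockout) against 260 ± 22.8 CPM (floxed) (SD, n = 3 each; log2 difference 0.05).

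Ifi27, a mitochondrial protein gene, measured 20.8, 19.4 and 15.8 CPM in knockout against 16.4, 15.4 and 15.2 CPM in floxed islets (log2 difference 0.25, edgeR adjusted p = 0.310). Only knockout 13 lay within the floxed range. Bst2, the virus tether tetherin, the leucine zipper protein gene Ifi35 and the antiviral gene Samd9l had log2 differences of -0.02, -0.17 and 0.03. On the scale of CPM per kilobase of exon, the mean level over the 6 libraries was 69.9 for Ly6e, 28.5 for Isg20, 16.0 for Ly6a and 11.7 for Ifi27, and the lowest levels were 0.668 for Rsad2 and 0.749 for Oasl2. The ranges over libraries of Isg20 and Ly6a overlapped, from 20.8 to 37.1 and from 11.3 to 22.5.

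Floxed 8 carried the highest value of the 3 floxed libraries in 18 of 30 members (60.0%), against 46.0% of all genes, and the highest of all 6 libraries in 12 (40.0%), against 24.9% of all genes. The 12 were Irf3, Irf7, Irf9, Ifit1, Oas1a, Oasl2, Rsad2, Isg20, Usp18, Trim21, Bst2 and Ifi35. Relative to the mean of floxed 18 and 19, floxed 8 stood 3.23-fold for Oasl2, 2.82-fold for Irf7, 2.48-fold for Ifit1 and 2.42-fold for Oas1a, and only 0.948-fold for Cmpk2 and 0.909-fold for Ly6a. Cd79a was likewise highest in floxed 8 and lowest in floxed 18 and 19, and 7 of the 8 alpha, delta and PP cell markers were highest in floxed 8 of all 6 libraries; the part of these cells in the members' values was not tested. The group of 3 floxed animals differed more among themselves in Irf7, Ifit1, Oas1a and Oasl2 than the 3 knockout animals did. These genes were named for their high floxed 8 values, so this spread is no separate result.

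**Figure D4:**
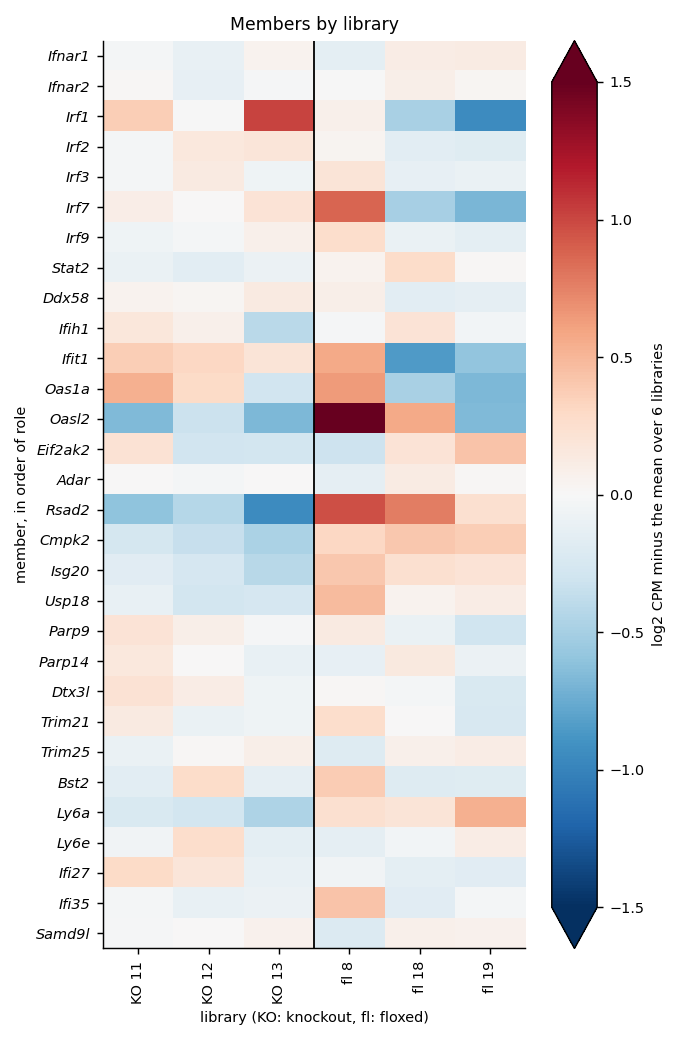
Log2 CPM of the 30 members in each library, as the difference from the gene's mean over 6 libraries (colour scale from -1.5 to 1.5). Floxed 8 is high for Irf7, Ifit1, Oas1a and Oasl2, while Cmpk2, Rsad2, Isg20 and Ly6a separate all 3 knockout from all 3 floxed libraries.

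Without floxed 8, 6 of the 30 members passed, 4 lower and 2 higher. The 4 were Cmpk2, Rsad2 (log2 difference -1.22, edgeR adjusted p = 0.0131), Isg20 and Ly6a (-0.70, adjusted p = 0.00393). The 2 were Ifit1 (1.03, adjusted p = 0.00573) and Irf7 (0.70, adjusted p = 0.0260), the last named here after its values were seen. The members' shares were 13.3% lower and 6.67% higher, against 5.7% and 8.59% of all genes, and 1584 genes were called in this fit against 45 with all libraries. Leaving out knockout 12 as well again called 4 lower and 2 higher, against 5.19% and 7.37% of all genes. With the acinar, endothelial or immediate early mean as a covariate and all 6 libraries, Ifit1 stood at -0.69, -0.42 and -0.51. Irf7 stood at -1.12, -0.90 and -1.03, and edgeR adjusted p for both ran from 0.0546 to 0.621. These fits include floxed 8 again, the floxed library nearest to the knockout level of each covariate, and lean on it. Floxed 8 lay above every knockout library in both genes, so the negative signs are no separate result about their direction.

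Other fits gave other counts of members. DESeq2 called 5 members lower (Cmpk2, Isg20, Rsad2, Ly6a and Oasl2) and 1 higher (Irf1), against 1.23% and 3.86% of all genes. With the endothelial mean as a covariate, edgeR called 3 lower (Cmpk2, Isg20 and Rsad2) and 0 higher, against 0.632% and 0.957% of all genes and 1.59% in either direction.

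The rest of the pathway gave no calls with all 6 libraries. Of 64 further genes tested, 0 passed the edgeR test in either direction (8 at an unadjusted p below 0.05, 5 higher and 3 lower, against 17.9% of all genes in either direction; 3 by DESeq2, against 5.09%), 33 had positive and 31 negative values, and the median log2 difference was 0.012. Of 15 signalling genes, Ifngr2, a chain of the interferon gamma receptor, stood at 5.74 ± 0.373 CPM (knockout) against 8.52 ± 1.60 CPM (floxed) (SD, n = 3 each; log2 difference -0.57, edgeR adjusted p = 0.131). Pias1, an inhibitor of cytokine signalling, had a log2 difference of 0.35. Socs3, a feedback inhibitor of cytokine receptors, measured 39.1, 39.9 and 54.1 CPM in knockout against 34.8, 13.3 and 14.0 CPM in floxed islets, so floxed 8 again lay nearer to the knockout libraries than floxed 18 and 19 did.

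Of 16 genes on the path that leads to interferon production, Traf6, an adaptor ligase of Toll-like receptors, had 29.3, 32.2 and 39.2 CPM in knockout against 23.0, 22.7 and 22.0 CPM in floxed islets. The groups did not overlap and floxed 8 lay with its group (log2 difference 0.57, edgeR adjusted p = 0.0683). Ticam1, which encodes the adaptor TRIF, had a log2 difference of 0.51 (adjusted p = 0.136), and the kinase adaptor genes Azi2 and Tbkbp1 had values of 0.14 and -0.27. Of 33 further interferon-inducible genes, Ifitm3, which blocks viral fusion, stood at 19.1 ± 2.42 CPM (knockout) against 13.1 ± 1.02 CPM (floxed) (log2 difference 0.55, edgeR adjusted p = 0.0800; SD, n = 3 each). Lgals3bp, a secreted glycoprotein, lay in the other direction at 323 ± 21.2 and 435 ± 34.6 CPM (log2 difference -0.43, adjusted p = 0.125). Shisa5 and the death ligand gene Tnfsf10 had log2 differences of -0.21 and -0.69.

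Without floxed 8, 7 of these 64 genes were called higher and 5 lower by edgeR, near the shares of 8.59% and 5.7% over all genes in that fit. The chemokine gene Cxcl10, a target of interferon gamma, had the largest log2 value among them at 3.41 (edgeR adjusted p = 2.9e-04), against 1.38 with all 6 libraries (adjusted p = 0.500). Cxcl10 measured 2.86, 3.96 and 5.23 CPM in knockout against 4.05, 0.432 and 0.305 CPM in floxed islets, so floxed 8 lay within the knockout range, and the values of floxed 18 and 19 rest on 9 and 6 counts. Socs3 had a value of 1.69, and Ticam1, Traf6, Ifitm3, Ptpn2 and Pias1 values from 0.44 to 0.65. The 5 lower genes were Tnfsf10, Ifngr2, Parp11, Traf3 and Lgals3bp, from -0.99 to -0.37.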

How the data were processed

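The values deposited are estimated counts without normalization for 11106 genes in 6 libraries (1422 genes, 4 of them members, had values that are not whole). The submitters' processing notes name mm10 and the tools HISAT2, StringTie and fastp, and the sources used here give no versions, counting rule, strand use or rule for listing genes. Per the labels' protocols, RNA was extracted with TRIzol and sequenced as 150-base pairs. Counts were rounded, filtered with edgeR's filterByExpr (minimum count 10, minimum total 15; 11080 genes left), scaled by TMM, and tested with edgeR 4.0.16 (R 4.3.3) quasi-likelihood, robust, no covariate, Benjamini-Hochberg over all genes. Standard errors come from the F statistic and intervals are at 95%; log2 CPM used a prior count of 2. On simulated data for this comparison (11076 genes), 90% of 100 genes changed by 1 log2 unit were called. Of 100 changed by 2, 98% were called, and 12 of 200 calls were unchanged genes. In the real data, with all 6 libraries, Rsad2 and Oasl2 had log2 differences of -1.37 and -1.43 and were not called. The simulated shares therefore need not hold for the members, and an uncalled member may still differ by 1 log2 unit. No libraries of a group were duplicates (chi-square per gene of at least 20.3 between replicates). Alternatives used limma 3.58.1 and DESeq2 1.42.0. Lengths and exon overlaps come from GENCODE M21; 9 of the 30 members share exon bases with an opposite-strand gene and 3 with a same-strand gene. The members, gene lists and tests were chosen with earlier results of these data known. Values in every library were given for the 12 members with the smallest p and, for roles without one, the most abundant member; others named were chosen after their values were seen. Some results that this rule covers are not reported here.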

Additional observations from a re-analysis of the deposited data

How the results depend on the processing

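No analysis paired by litter was possible, because the labels do not say which animals share a litter. The alternatives were RLE scaling, library totals, acinar markers left out, no filter or a mean of 1 CPM, DESeq2, limma-voom, no robust dispersion, acinar or endothelial level as a covariate, each library left out and, added after seeing the data, the immediate early covariate and leaving out knockout 12 with floxed 8. With single libraries left out, members called lower ran from 0 to 4 (1 with all), members called higher from 0 to 2 (0 with all), all genes called from 0 to 1584 (45 with all), and the other interferon genes from 0 to 7 higher and 0 to 5 lower; every maximum came without floxed 8. Without knockout 12 and floxed 8 these were 4, 2, 1392, 7 and 4. DESeq2 called 5 members lower and 1 higher, 564 genes in all, and 2 higher and 1 lower among the other interferon genes. The acinar covariate gave 0 members lower and 0 genes, and the endothelial covariate 3 members lower and 176 genes. The immediate early covariate gave 102 genes and 1 member lower, Isg20 (log2 difference -0.71, edgeR adjusted p = 0.0366). Cmpk2 was not called with it (edgeR adjusted p = 0.0511), and the members' median was -0.12. Library totals gave 22 members below zero in place of 17. In 20 of the 30 members the sign differed from that with all libraries and no covariate under at least 1 alternative, in 13 under a covariate (Eif2ak2 reached 0.33, Trim25 0.24 and Irf3 -0.25), all of them uncalled with all libraries. Among the 14 members given in every library, with the acinar covariate Irf2 stood at -0.0075, Ifit1 at -0.69, Ifnar2 at 0.018 and Ddx58 at -0.081; with the endothelial covariate Ifit1 at -0.42 and Ddx58 at -0.026; with the immediate early covariate Ifit1 at -0.51 and Ddx58 at -0.052. The cause was not tested. Rsad2, Oas1a, Oasl2 and Cxcl10 rest on few counts, which limits their precision.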
